A study of Mus musculus with 9 samples.

Results

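The 854 genomic regions described here carried a Stat5 peak at 8 h of Th2 differentiation, none at 13 h and a peak again after 2 rounds, in mouse CD4+ T cells profiled by chromatin immunoprecipitation and sequencing (ChIP-seq). They were chosen from the 6 peak lists deposited by the authors, for Stat5a and for Stat5b at each of 3 stages, in coordinates of the mm8 build of the mouse genome. Peaks overlapping by at least 1 bp were joined into 43766 merged regions outside the mitochondrial chromosome. The 854 are the merged regions with a peak of either antibody at 8 h and after 2 rounds and none of either antibody at 13 h. The lists were called from these same libraries, so the presence and absence of peaks, and the levels that follow from them, are a description of how the regions were chosen and not a finding.

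The series holds 9 libraries, 1 each for Stat5a, Stat5b and an IgG control from CD4+ T cells at 8 h, 13 h and 2 rounds of Th2 culture. The labels name no strain, age, genotype or cytokine treatment, and give the growth and treatment of the cells only by reference to a publication. There are no replicates, so every comparison is between 2 libraries and not between conditions. The libraries held between 3130228 (Stat5a at 8 h) and 9036070 (Stat5b at 13 h) mapped reads, of which between 61.0% and 74.1% had a distinct start and strand. The 854 regions took between 0.179% (IgG at 8 h) and 0.559% (Stat5b after 2 rounds) of the reads of a library.

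Stat5a and Stat5b are near relatives within the Stat family of transcription factors and carry signals from IL-2 and several further cytokines. Receptors for these cytokines activate Jak kinases, which phosphorylate the Stat5 proteins, and the phosphorylated proteins dimerise, enter the nucleus and bind DNA. In CD4+ T cells, IL-2 signalling through Stat5 is known to be needed for efficient differentiation into Th2 cells, the helper cells that secrete IL-4. Chromatin bound by the proteins is recovered with an antibody, and the IgG library shows what is recovered without a specific one. Regions are named by their position, as no gene annotation or sequence of the mm8 build was used.

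The recurrence rested mostly on 1 antibody at each stage, and not on the same one. At 8 h, 610 regions had their peak in the Stat5a list only, 205 in the Stat5b list only and 39 in both. After 2 rounds, 653 had theirs in the Stat5b list only, 33 in the Stat5a list only and 168 in both. The commonest combination, in 469 regions (54.9%), was a Stat5a peak at 8 h and a Stat5b peak after 2 rounds. Only 13 regions had peaks in all 4 lists. The same makeup is not given for all merged regions or for the other classes. The sizes of the 8 h and 2 rounds lists are not given either. Whether the same lists supply most peaks elsewhere was therefore not tested, and this makeup is not read as particular to these regions.

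An 8 h peak and a 2 rounds peak overlapped directly in each of the 854 regions, which the joining of overlapping peaks fixes. The overlap, whose size the joining leaves free above 1 bp, was 4 bp at the least and 235 bp in the median, and 30 regions had one under 50 bp. The centres of the peaks were 76.8 bp apart in the median, and within 200 bp of each other in 696 regions. The 8 h peak was the narrower, with a median of 255 bp against 624 bp after 2 rounds, and in 672 regions it lay wholly inside the 2 rounds peak. In 275 regions the overlap covered 50% or more of each peak. The merged regions were between 105 and 2298 bp wide, with a median of 672 bp, and covered 0.618 Mb in all. Regions with peaks at all 3 stages had a median width of 841 bp. Chromosome 2 held 77 of the regions (9.02%, against 8.16% of all merged regions), chromosome 11 held 74 (8.67% against 7.73%) and the X chromosome 10 (1.17% against 1.99%).

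Levels are given as RPM, the reads whose 5′ end fell in a region per 1000000 reads of the library, and ratios of RPM carry exact conditional (Clopper-Pearson) 95% intervals, which cover counting error only. The median Stat5a level of the 854 regions was 3.19 RPM at 8 h (quartiles 2.24 and 4.47), 1.44 RPM at 13 h (0.963 and 2.17) and 1.96 RPM after 2 rounds (1.20 and 3.16). The median Stat5b level was 1.31 RPM at 8 h (0.728 and 1.89), 1.88 RPM at 13 h (1.11 and 2.66) and 4.83 RPM after 2 rounds (3.0 and 6.92). Over all 854, Stat5a was therefore highest at 8 h and lowest at 13 h, while Stat5b had its lowest median at 8 h and its highest after 2 rounds. These medians are carried by the 610 regions chosen through a Stat5a peak at 8 h, where the Stat5a medians were 3.51, 1.44 and 2.11 RPM and the Stat5b medians 1.02, 1.88 and 4.96 RPM. In the 205 chosen through a Stat5b peak at 8 h, Stat5a stood at 1.28, 1.32 and 1.66 RPM. Stat5b stood there at 1.75, 1.77 and 4.44 RPM. Both median levels were thus nearly the same at 8 h and 13 h. The median ratios of 13 h over 8 h in these regions were below 1, at 0.942 for Stat5a and 0.861 for Stat5b. With regions of at least 10 RPM of IgG left out, the Stat5b median of the remaining 203 was 1.75 RPM at 8 h and 1.66 RPM at 13 h. The median IgG level was 0.481 RPM at 8 h, 0.797 RPM at 13 h and 0.691 RPM after 2 rounds, so the control had its highest median at the stage without a peak. Region by region, IgG at 13 h and after 2 rounds hardly differed. It was higher after 2 rounds in 369 regions and lower in 383, with a median ratio of 0.975. Per kb of region, Stat5a stood at 4.80, 2.10 and 2.96 RPM, Stat5b at 1.89, 2.79 and 6.92 RPM and IgG at 0.721, 1.15 and 1.07 RPM at the 3 stages in turn. These levels rest on few reads. The median region held 10 Stat5a reads at 8 h, 12 at 13 h and 13 after 2 rounds, and 366 regions held under 10 Stat5a reads at 8 h.

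**Figure D1:**
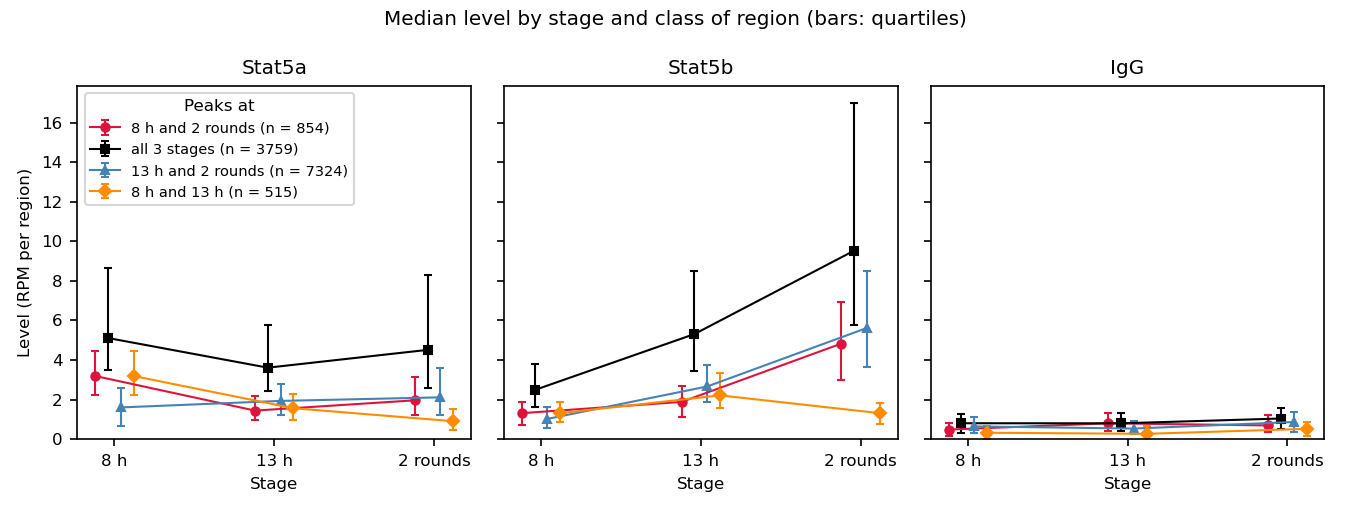
Median level per region (RPM, vertical axis) at each stage (horizontal axis) for Stat5a, Stat5b and IgG, in regions grouped by the stages at which they carry a peak; bars are quartiles over regions, and each point is 1 library. In the 854 regions with peaks at 8 h and 2 rounds, Stat5a goes from 3.19 to 1.44 to 1.96 RPM and Stat5b from 1.31 to 1.88 to 4.83 RPM, below the regions with peaks at all 3 stages throughout.

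Set beside the other classes, these regions were weaker than those with peaks at all 3 stages in every ChIP library. The 3759 regions of that class had medians of 5.11, 3.61 and 4.51 RPM for Stat5a and 2.48, 5.31 and 9.53 RPM for Stat5b. In the 7324 regions whose peaks fell at 13 h and 2 rounds alone, the Stat5a medians were 1.60, 1.93 and 2.11 RPM. In the 515 whose peaks fell at 8 h and 13 h alone, they were 3.19, 1.56 and 0.903 RPM. Per region, the 8 h and 13 h medians of Stat5a in that last class lay close to the 3.19 and 1.44 RPM of the 854 regions, although it carries a 13 h peak and they do not. That class is narrower, however, with a median width of 386 bp against 672 bp. Per kb its Stat5a medians were 8.23 RPM at 8 h and 4.06 RPM at 13 h, against 4.80 and 2.10 RPM in the 854. Its median IgG level at 13 h was 0.266 RPM against 0.797 RPM per region, and 0.780 RPM against 1.15 RPM per kb.

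The absence of a 13 h peak was not an absence of reads. Only 7 of the 854 regions (0.820%) held no Stat5a read at 13 h, and every region held at least 1 Stat5b read. IgG also had reads at 13 h in all but 47 (5.50%), so holding a read is not particular to Stat5. Stat5a reads were missing at 13 h in 0.0532% of regions with peaks at all 3 stages. They were missing in 9.62% of those with a peak after 2 rounds only and 30.6% of those at 8 h only, both classes of narrower regions. The ratio of ChIP over the IgG of the stage was called above IgG when its interval lay wholly above 1. At 13 h this held for Stat5a in 197 regions (23.1%, against 37.4% of all merged regions) and for Stat5b in 351 (41.1%, against 38.8%). With the IgG libraries of the 3 stages pooled as the control, the number was 358 for Stat5a and 526 for Stat5b. No share of all merged regions is given for the pooled control, so these 2 numbers have no background beside them. On distinct starts the numbers were 63 for Stat5a (7.38%, against 17.8%) and 155 for Stat5b (18.1%, against 27.7%). On all reads, either antibody was above IgG in 414 regions (48.5%), against 55.2% of all merged regions, 96.4% of those with peaks at all 3 stages, 12.2% of those with a peak at 8 h only and 26.2% of those with a peak after 2 rounds only. Both antibodies were above IgG at 13 h in 134 regions (15.7%, against 20.9%). Since the regions were chosen for having no 13 h peak, nothing is read from these shares beyond the number of regions with reads.

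The shares at the stages with a peak differed by antibody. On all reads the Stat5b share at 8 h lay below that at 13 h, but on distinct starts it did not. There Stat5b was above IgG in 168 regions at 8 h (19.7%, against 7.05% of all merged regions) and in 155 at 13 h (18.1%, against 27.7%). The values that follow are on all reads. At 8 h Stat5a was above IgG in 642 regions (75.2%, against 23.2% of all merged regions) and Stat5b in 234 (27.4%, against 12.1%). After 2 rounds Stat5a was above IgG in 359 (42.0%, against 32.7%) and Stat5b in 799 (93.6%, against 71.5%). Put together by region, 331 (38.8%, against 5.83%) were above IgG in either antibody at 8 h and after 2 rounds and in neither at 13 h, which is the pattern the peak lists describe. In 341 regions (39.9%, against 17.0%) either antibody was above IgG at all 3 stages. In regions with peaks at all 3 stages these shares were 1.92% and 89.9%.

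Reads summed over regions gave narrower intervals. For this, 1 region with reads heaped on a single start and 6 with an IgG level of at least 10 RPM were left out, which left 847 regions. Summed Stat5a over these was 2877 RPM at 8 h against 498 RPM of IgG, a ratio of 5.78 (5.54 to 6.02). At 13 h it was 1372 RPM against 783 RPM, a ratio of 1.75 (1.70 to 1.81), and after 2 rounds 2011 against 743 RPM, a ratio of 2.71 (2.61 to 2.80). Stat5a reads were thus in excess of IgG at each stage, least so at 13 h. Summed Stat5b was 1220 RPM at 8 h, 1732 RPM at 13 h and 4614 RPM after 2 rounds, with ratios to IgG of 2.45 (2.35 to 2.55), 2.21 (2.15 to 2.28) and 6.21 (6.02 to 6.41). The Stat5b ratio at 13 h lay slightly below that at 8 h, although the RPM was higher, and this depended on which list gave the 8 h peak. In the 609 regions with an 8 h peak in the Stat5a list only, Stat5b over IgG was 2.14 (2.04 to 2.26) at 8 h and 2.25 (2.18 to 2.34) at 13 h. In the 203 with one in the Stat5b list only, it was 3.02 (2.80 to 3.27) and 2.15 (2.02 to 2.29), the 8 h value being the one these regions were chosen by. In the latter set Stat5a over IgG was 2.42 (2.20 to 2.65) at 8 h, 1.67 (1.56 to 1.78) at 13 h and 2.25 (2.10 to 2.42) after 2 rounds. Counting each start and strand once, the 6 ratios over the 847 regions kept their order, at 5.53, 1.74 and 2.51 for Stat5a and 2.59, 2.16 and 6.07 for Stat5b. Over all 854 regions the ratios were lower, at 2.43, 1.16 and 1.35 for Stat5a and 1.36, 1.36 and 2.29 for Stat5b, and 1 region on chromosome 2, described at the end, held 1221 of the 4343 RPM of Stat5a and 1076 of the 1787 RPM of IgG at 8 h.

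With heaped and high IgG regions left out, summed reads of the antibody that did not supply the peak were also in excess of IgG. In 609 regions with an 8 h peak in the Stat5a list only, summed Stat5b at 8 h was 719 RPM against 335 RPM of IgG, the ratio of 2.14 given above. In 203 regions with an 8 h peak in the Stat5b list only, summed Stat5a at 8 h was 329 RPM against 136 RPM, the ratio of 2.42. After 2 rounds, 650 regions with a peak in the Stat5b list only had a Stat5a ratio of 2.04 (1.96 to 2.12), and 29 with a peak in the Stat5a list only had a Stat5b ratio of 1.80 (1.45 to 2.26). In all 4 of these sets the summed reads of the other antibody were thus in excess of IgG at the same stage. For the last set this depended on the regions left out. Over all 33 regions with a 2 rounds peak in the Stat5a list only, the Stat5b ratio was 0.566 (0.549 to 0.584). On distinct starts it was 0.993 (0.887 to 1.11). With no region left out, the other sets stayed above 1, at 2.14, 1.90 and 1.94 in turn. Single regions could lack reads of the other antibody, as 13 of the 610 regions with an 8 h peak in the Stat5a list only held no Stat5b read at 8 h, and 7 of the 205 in the Stat5b list only held no Stat5a read. A summed excess over IgG did not need a peak at that stage. In the 7324 regions with peaks at 13 h and 2 rounds alone, none left out, the 8 h sums were 13333 RPM of Stat5a and 9015 RPM of Stat5b, against 5817 RPM of IgG. The excess of the other antibody is therefore not read as a property of these regions.

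The level of IgG at 13 h moved with the choice of these regions, mainly of those with an 8 h peak in the Stat5a list only. In RPM, IgG was higher at 13 h than at 8 h in 585 of the 854 (68.5%) and lower in 255, while it was higher in 55.1% of the regions with peaks at all 3 stages and in 44.8% of all merged regions. IgG was highest of the 3 stages at 13 h in 365 (42.7%, against 27.3% of all merged regions, 30.9% of those with peaks at all 3 stages and 21% of those with peaks at 13 h and 2 rounds). The median ratio of IgG at 13 h over 8 h was 1.53 in the 702 regions with reads in both libraries, against 0.829 over all merged regions and 1.11 in regions with peaks at all 3 stages. It was 1.66 in those with an 8 h peak in the Stat5a list only. In those with one in the Stat5b list only it was 1.11, as in regions with peaks at all 3 stages. By interval, called higher when wholly above 2 and lower when wholly below 0.5, 13 regions (1.52%, against 0.254%) were higher in IgG at 13 h than at 8 h and 1 (against 0.462%) was lower. Whether the IgG libraries entered the authors' peak calling is not given in the sources used here, and the part of the IgG level in the missing 13 h peaks was not tested.

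The densest 300 bp of each region at 13 h gave the same view. In the 13556 merged regions with a Stat5a peak at 13 h this window held 13 Stat5a reads in the median and at least 8 in 9 of 10. The 854 regions held 9 in the median, and 232 of them (27.2%) reached 13 reads or more. For Stat5b the 12166 regions with a 13 h peak held 21 reads in the median, and 87 of the 854 (10.2%) reached that number. Among these denser regions the IgG window was rarely low. Of the 232, 11 had an IgG window at or under 2 reads, the median of regions with a Stat5a peak, whereas 157 of the 854 had one that low and so had 38.4% of the peak regions of the same Stat5a density. Of the 87, 7 had an IgG window at or under 4 reads, the median of regions with a Stat5b peak, whereas 348 of the 854 did and 48.5% of the peak regions of the same Stat5b density. Almost every region that matched the 13 h peaks in ChIP reads without being listed thus had an IgG window above these medians. Width was not matched here, and a wider region has more room for a dense window. The medians include regions with a peak at 13 h only, with a median width of 231 bp against 672 bp. Their IgG window held 0 reads in the median. In regions with peaks at all 3 stages, with a median width of 841 bp, the IgG window at 13 h held 5 reads in the median, as in the 854.

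From 8 h to 13 h, the change in RPM followed the list that gave the 8 h peak. In the regions with a Stat5a peak only at 8 h, the median ratio of 13 h over 8 h was 0.399 for Stat5a, 1.77 for Stat5b and 1.66 for IgG. In those with a Stat5b peak only at 8 h, it was 0.942 for Stat5a, 0.861 for Stat5b and 1.11 for IgG. Each antibody thus had its lower ratio where its own 8 h peak had chosen the regions, and the values over all 854 that follow are mostly those of the first set. The ratio of Stat5a at 13 h over 8 h was below 1 in 721 of the 840 regions with reads in both libraries, with a median of 0.471 (log2 -1.09). By interval 83 regions were lower (9.72%, against 2.15% of all merged regions) and 0 were higher (against 0.286%), and 79 of the 83 had their 8 h peak in the Stat5a list only. With repeats of a start and strand dropped, 21 were lower (2.46%, against 0.555%). The ratio of Stat5b was above 1 in 600 of 841 regions and below 1 in 241, with a median of 1.52 (log2 0.60), close to the 1.53 of IgG. By interval 20 regions were higher (2.34%, against 5.27%) and 1 was lower (0.117%, against 0.304%), with 0 on distinct starts (against 0.00685%). The Stat5b median stayed above 1 when scaled by reads outside regions (1.55), on distinct starts (1.35) and with 25 bp reads alone (1.52). It fell below 1 only when set against all merged regions. Over all merged regions the median ratio was 1.90 for Stat5b and 0.869 for Stat5a. Relative to these, the median of the 854 regions was 0.542 for Stat5a (log2 -0.88) and 0.800 for Stat5b (log2 -0.32), so that on that scale both antibodies were lower at 13 h than at 8 h. The merged regions were themselves chosen by peaks, 8770 of them at 13 h only against 1550 at 8 h only. Regions chosen for lacking a 13 h peak lie below such a reference in part by that choice, so nothing is concluded from this scale. In regions with peaks at all 3 stages the unscaled medians were 0.696 for Stat5a and 2.22 for Stat5b.

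**Figure D2:**
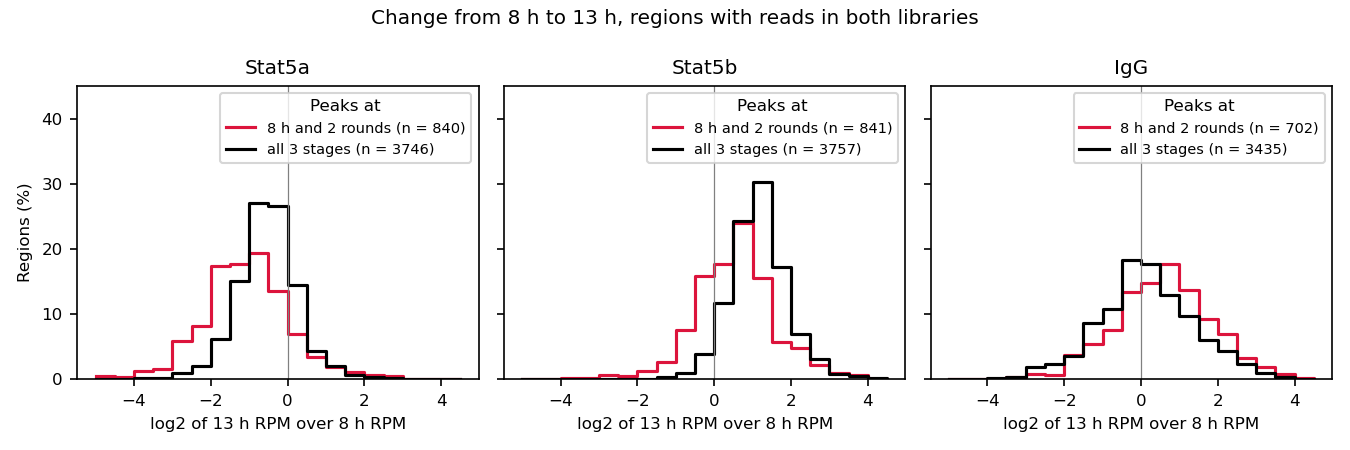
Distribution over regions (percent, vertical axis) of the log2 ratio of 13 h over 8 h RPM (horizontal axis, bins on a log2 scale) for Stat5a, Stat5b and IgG, in regions with peaks at 8 h and 2 rounds and in regions with peaks at all 3 stages. The regions without a 13 h peak lie further left for both Stat5 antibodies (medians -1.09 for Stat5a and 0.60 for Stat5b) and further right for IgG.

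From 13 h to 2 rounds both antibodies rose in the median, Stat5b more so. The median ratio was 1.35 for Stat5a and 2.56 for Stat5b, close to the 1.25 and 2.58 of all merged regions, and 0.975 for IgG. By interval Stat5a was higher after 2 rounds in 44 regions (5.15%, against 7.67%) and lower in 1 (against 3.97%). Stat5b was higher in 216 (25.3%, against 25.1%) and lower in 0 (against 0.637%). On distinct starts 12 were higher for Stat5a (1.41%, against 2.56%) and 120 for Stat5b (14.1%, against 14.8%). These shares are near or under those of all merged regions. Scaled by the median ratio over all merged regions, 19 were higher for Stat5a and 12 for Stat5b. Across the whole course, Stat5a after 2 rounds was lower than at 8 h in 37 regions (4.33%, against 1.91%) and higher in 5 (against 3.73%), with a median ratio of 0.669. Stat5b was higher than at 8 h in 360 (42.2%, against 43.4%), with a median ratio of 3.73. In RPM the antibodies thus differed between the stages with peaks in opposite directions over all 854, and in the regions chosen through a Stat5a peak at 8 h (median ratios 0.589 for Stat5a and 4.48 for Stat5b). In those chosen through a Stat5b peak both medians were above 1, at 1.14 for Stat5a and 2.31 for Stat5b. Over all merged regions the medians were 1.10 for Stat5a and 4.82 for Stat5b, and relative to these both antibodies were lower after 2 rounds than at 8 h. That reference too was chosen by peaks, with 20994 regions after 2 rounds only against 1550 at 8 h only.

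A level at 13 h below both other stages was common for Stat5a and less so for Stat5b. Stat5a had its lowest RPM at 13 h in 507 regions (59.4%, against 28.0% of all merged regions), but so did 53.4% of the regions with peaks at all 3 stages. Stat5b had its lowest RPM at 13 h in 232 regions (27.2%, against 17.7%), which compares with 4.66% of the regions with peaks at all 3 stages, 25.3% of those with a peak at 8 h only and 26.2% of those with a peak after 2 rounds only. Stat5b instead went up in order from 8 h to 13 h to 2 rounds in 592 regions (69.3%, against 59.3%). Both antibodies were lowest at 13 h in 129 regions (15.1%, against 4.76%). A fall from 8 h to 13 h and a rise from 13 h to 2 rounds both called by interval in the same antibody occurred for Stat5a in 15 regions (1.76%, against 0.263%) and for Stat5b in 1 (0.117%, against 0.0480%). With each start and strand counted once, 3 of the 15 still met this (0.351%, against 0.0114%) and the Stat5b region did not.

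The clearest example lay on chromosome 10, at chr10:94575953-94576877. Its Stat5a level was 5.75 RPM at 8 h, 0.361 RPM at 13 h and 6.77 RPM after 2 rounds, from 18, 3 and 45 reads. Its Stat5b level was 1.75, 1.55 and 11.4 RPM and its IgG level 0, 0.399 and 0.173 RPM at the same stages. Stat5a was thus near the IgG level at 13 h only, while Stat5b was slightly lower at 13 h than at 8 h and high after 2 rounds only. The ratio of Stat5a was 0.0628 (0.0118 to 0.215) from 8 h to 13 h and 18.8 (6.02 to 94.4) from 13 h to 2 rounds. On distinct starts these ratios were 0.118 (0.0208 to 0.458) and 10.7 (3.28 to 55.6). For Stat5b the ratio of 13 h over 8 h was 0.887 (0.381 to 2.10), an interval that allows a fall or a rise. The Stat5b ratio of 2 rounds over 13 h was 7.33 (4.14 to 14.0). The nearest 13 h peak was 3099 bp away.

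The other two regions in which the Stat5a dip was also met on distinct starts are named here after their values were seen. At chr8:89742593-89743078, Stat5a held 16 reads at 8 h, 3 at 13 h and 19 after 2 rounds, with ratios of 0.0706 (0.0132 to 0.247) and 7.92 (2.33 to 41.8), and IgG held 0, 4 and 0 reads. At chr5:117443371-117443896, Stat5a held 8, 0 and 17 reads. With the 13 h library set at a floor of 3 reads, its level was 7.08 times that floor at 8 h and 7.09 times after 2 rounds. These values leave out the counting error of the 8 and 17 reads, so they are not lower limits. In that region Stat5b held 0, 7 and 28 reads, so the antibodies did not move together.

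The remaining examples of a Stat5a dip rested more on repeated starts. At chr11:78464360-78465280 the Stat5a level was 4.79, 0.842 and 9.78 RPM and the Stat5b level 1.89, 2.32 and 11.6 RPM. The Stat5a ratio was 0.176 (0.0606 to 0.458) from 8 h to 13 h and 11.6 (5.33 to 30.0) from 13 h to 2 rounds, and a 13 h peak lay 180 bp from its edge. The single Stat5b dip, at chr2:84534472-84535070, rested on 14, 2 and 26 reads, with ratios of 0.109 (0.0120 to 0.473) and 15.3 (3.84 to 133). There Stat5a held 2, 5 and 7 reads.

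**Figure D3:**
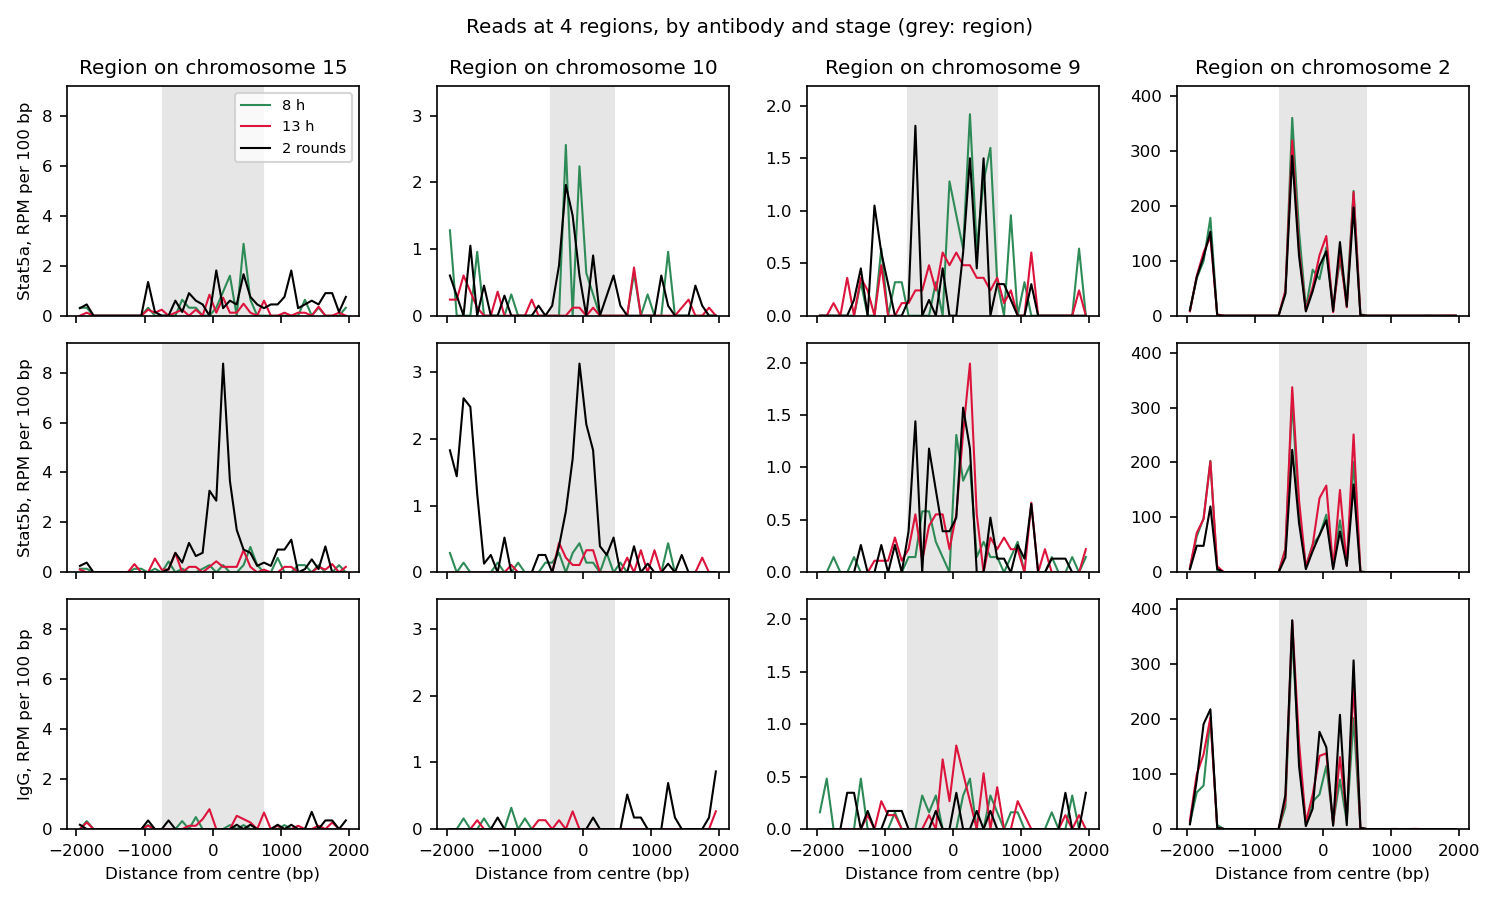
Reads per 100 bp (RPM, vertical axis) against distance from the centre of the region (bp, horizontal axis) for Stat5a, Stat5b and IgG at 8 h, 13 h and after 2 rounds, at the regions named in the text on chromosomes 15 (chr15:9524624-9526097), 10 (chr10:94575953-94576877), 9 (chr9:64993582-64994887) and 2 (chr2:98466999-98468251); grey marks the region and the vertical scale differs between columns. On chromosome 10 the Stat5a trace is high at 8 h and after 2 rounds and near 0 at 13 h, on chromosome 15 Stat5b rises after 2 rounds, and on chromosome 2 all 9 libraries, IgG included, have the same shape.

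The regions with the largest Stat5a fall from 8 h to 13 h did not all return. At chr19:41891123-41891787 the Stat5a level was 7.99 RPM at 8 h, 0.963 RPM at 13 h and 4.06 RPM after 2 rounds, with a ratio of 0.121 (0.0470 to 0.276) from 8 h to 13 h and 4.22 (1.87 to 10.8) from 13 h to 2 rounds. At chr1:97496241-97497006 it was 7.03, 0.963 and 0.903 RPM, with a ratio of 0.137 (0.0527 to 0.319) from 8 h to 13 h and no recovery. The Stat5b level of that region was 0.437, 3.10 and 3.66 RPM, and its Stat5b ratio of 13 h over 8 h was 7.09 (2.19 to 36.5). Its peak after 2 rounds came from the Stat5b list, so the 8 h and 2 rounds peaks joined there belong to different antibodies with opposite courses. The next regions by size of the fall, at chr9:56263178-56263874, chr6:38739438-38740253 and chr9:20886202-20886627, had Stat5a ratios of 0.151 (0.0574 to 0.357), 0.166 (0.0736 to 0.349) and 0.171 (0.0724 to 0.377). Their Stat5a levels after 2 rounds were 1.66, 2.86 and 3.16 RPM, against 6.39, 7.99 and 7.03 RPM at 8 h.

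The regions with the most reads above IgG after 2 rounds held far fewer Stat5b reads at both earlier stages. The first was chr15:9524624-9526097, where Stat5b was 2.91 RPM at 8 h, 3.98 RPM at 13 h and 26.0 RPM after 2 rounds and Stat5a was 7.67, 3.61 and 8.73 RPM. IgG there was 1.12, 2.66 and 0.691 RPM. The Stat5b ratio of 2 rounds over 13 h was 6.52 (4.56 to 9.58), and 6.44 (3.98 to 10.9) on distinct starts, while Stat5a at 13 h over 8 h was 0.471 (0.266 to 0.841). At 13 h neither antibody was above IgG there, with ratios of 1.36 (0.746 to 2.52) for Stat5a and 1.50 (0.845 to 2.73) for Stat5b, the IgG library holding its highest level of the 3 stages.

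The second, chr15:67242731-67243958, had Stat5a levels of 6.39, 3.97 and 14.6 RPM and Stat5b levels of 1.89, 2.88 and 18.5 RPM. From 13 h to 2 rounds its Stat5b ratio was 6.45 (4.22 to 10.2) and its Stat5a ratio 3.68 (2.45 to 5.64), and Stat5a at 13 h was above IgG at 2.30 (1.18 to 4.76). At chr7:128534627-128535529 Stat5b was 0.874, 1.55 and 16.7 RPM, a ratio of 10.8 (6.20 to 20.3) from 13 h to 2 rounds. Chr8:24721195-24722228 was alike, with Stat5b at 1.89, 1.77 and 19.7 RPM. In these 4 regions Stat5b was low at 8 h and at 13 h alike and high after 2 rounds, while Stat5a varied less.

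In chr10:39369280-39370061 the 8 h peak itself had little behind it. Stat5a was 0.958, 1.44 and 14.1 RPM and Stat5b 1.46, 1.66 and 15.0 RPM, beside IgG at 0.801, 1.33 and 0.864 RPM. Its 8 h peak came from the Stat5b list, where the ratio to IgG was 1.82 (0.566 to 6.78), so that it was not above IgG by interval at 8 h or 13 h. From 13 h to 2 rounds its Stat5b ratio was 9.05 (5.26 to 16.7) and its Stat5a ratio 9.80 (5.35 to 19.6).

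The largest Stat5b ratios of 2 rounds over 13 h came from regions with hardly any Stat5b read at 13 h. At chr13:100416894-100417609 Stat5b held 6, 1 and 69 reads at the 3 stages, while its Stat5a level was 6.07, 1.80 and 9.93 RPM. The Stat5b ratio of 81.4 (14.1 to 3262) has an interval set by the single read. At chr8:128150722-128151311 Stat5b held 5, 1 and 69 reads, with Stat5a nearly level at 8, 17 and 16 reads. There Stat5a at 13 h was 15.4 (2.41 to 643) over IgG, from 17 reads against 1, although no 13 h peak was listed.

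Some of the strongest regions were above IgG at 13 h in both antibodies. At chr10:88160134-88162371, 2238 bp wide, Stat5a was 9.58, 7.94 and 5.72 RPM and Stat5b 5.39, 8.41 and 21.8 RPM, with IgG between 2.59 and 2.88 RPM. Its 13 h ratios to IgG were 2.99 (1.79 to 5.20) for Stat5a and 3.16 (1.91 to 5.47) for Stat5b, and the nearest 13 h peak was 93805 bp away. Chr4:134584532-134586475 was similar, with Stat5b at 2.91, 4.76 and 26.0 RPM and 13 h ratios of 2.43 (1.41 to 4.36) for Stat5a and 1.88 (1.08 to 3.42) for Stat5b. In both regions the reads showed no gap at 13 h that matched the gap in the lists.

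The 13 regions with peaks in all 4 of the 8 h and 2 rounds lists were summed as a set. Stat5a over IgG was 6.50 (4.86 to 8.81) at 8 h, 1.61 (1.30 to 2.01) at 13 h and 5.11 (3.82 to 6.96) after 2 rounds. Stat5b over IgG was 3.31 (2.48 to 4.47), 2.01 (1.64 to 2.48) and 8.51 (6.44 to 11.5). Both antibodies were nearest to IgG at 13 h, and IgG itself went from 9.77 RPM at 8 h to 17.5 RPM at 13 h and 9.33 RPM after 2 rounds. The highest of them, chr9:64993582-64994887, had Stat5a at 8.95, 5.05 and 6.62 RPM, Stat5b at 5.82, 7.53 and 8.49 RPM and IgG at 2.08, 3.59 and 0.864 RPM. Its Stat5b ratio to IgG at 13 h was 2.10 (1.32 to 3.41). At chr2:157138504-157139759 Stat5a was 6.39, 1.68 and 5.72 RPM, a ratio of 0.264 (0.123 to 0.549) from 8 h to 13 h and 3.39 (1.80 to 6.78) from 13 h to 2 rounds, while Stat5b was 2.62, 3.98 and 11.1 RPM. At chr7:29803430-29804733 Stat5a was 8.95, 2.65 and 4.66 RPM, and IgG was 0.481, 2.26 and 0.864 RPM, with an IgG ratio of 13 h over 8 h of 4.70 and a lower limit of 1.36.

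For Stat5a, the arrangement of reads around the 8 h peaks was the same at every stage in kind, and differed in strength. For Stat5b and IgG the distance between the strands also differed by stage. In ChIP-seq, reads from the forward strand pile up on one side of a bound site and reads from the reverse strand on the other. Around the centres of the 8 h peaks of the 847 regions, the running mean of Stat5a starts over 5 bins of 20 bp was highest at 50 bp upstream on the forward strand and 50 bp downstream on the reverse strand at all 3 stages, 100 bp apart, and Stat5b had the same maxima at 13 h. For Stat5b the maxima were 60 bp apart at 8 h and 120 bp apart after 2 rounds. In IgG they were 20, 0 and 80 bp apart. The density of distinct starts within 100 bp of the centre over that at 800 to 1000 bp was 8.69 (8.01 to 9.43), 2.94 (2.76 to 3.13) and 3.78 (3.56 to 4.03) for Stat5a at the 3 stages. For Stat5b it was 4.36 (4.09 to 4.66), 3.26 (3.09 to 3.44) and 4.94 (4.74 to 5.15), and for IgG 1.78 (1.61 to 1.97), 2.26 (2.09 to 2.45) and 1.91 (1.75 to 2.08). Both ChIP antibodies thus had their smallest concentration at 13 h and IgG its largest, and at 13 h the ChIP values still exceeded that of IgG. The centres were placed on 8 h peaks, so the 8 h ChIP values are fixed by the choice, in part. The regions were also chosen for a peak after 2 rounds and none at 13 h. The low ChIP values at 13 h and the higher ones after 2 rounds are therefore also fixed in part, and are not a finding.

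**Figure D4:**
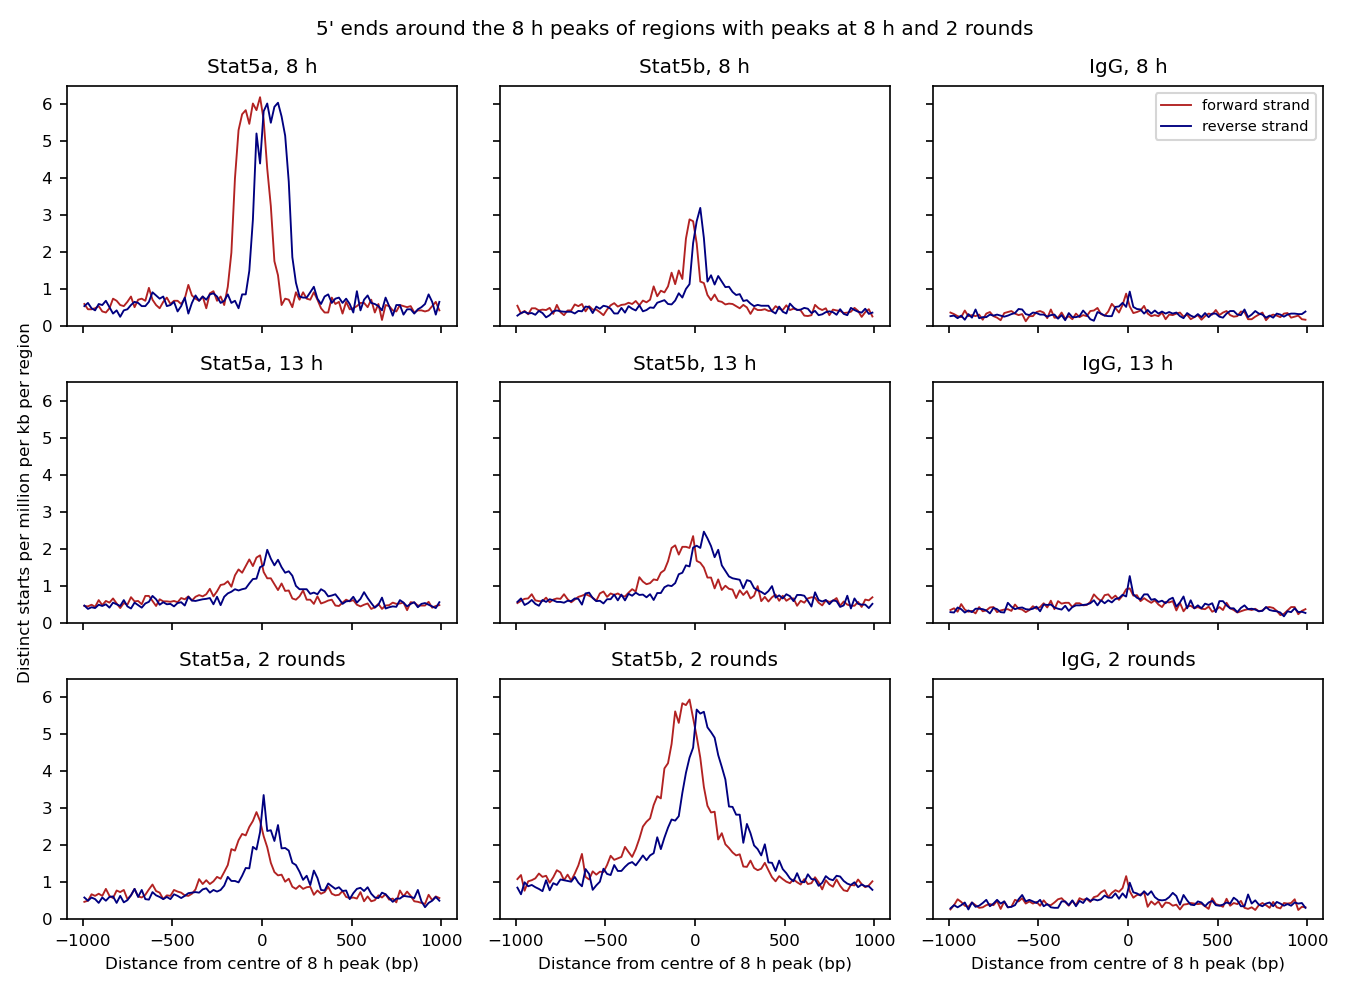
Density of distinct read starts (per 1000000 starts per kb per region, vertical axis) against distance from the centre of the 8 h peak (bp, horizontal axis), forward and reverse strands apart, for 3 antibodies in columns and 3 stages in rows, summed over 847 regions. The lines are not smoothed; in the running mean the strand maxima of Stat5a and Stat5b at 13 h lie 100 bp apart, lower than at 8 h for Stat5a, and IgG has a low central rise at each stage.

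The regions near the limit of the rule had 13 h peaks that just missed or just touched. The 13 h peak nearest to a chosen region was 1 bp from chr3:69092648-69093411, and 3 bp from both chr3:146458104-146459064 and chr5:144476732-144477530. These had Stat5a levels at 13 h of 1.80, 2.41 and 1.08 RPM and Stat5b levels of 2.21, 1.66 and 1.99 RPM. On the other side of the limit, the 13 h peak overlapped the 8 h and 2 rounds peaks by 25 bp in chr12:3571953-3572711, 45 bp in chr10:67549192-67550246 and 48 bp in chr17:80197791-80198864. Their levels at 13 h were 1.08, 1.08 and 2.53 RPM for Stat5a and 2.43, 4.32 and 2.77 RPM for Stat5b. Of the 3759 regions with peaks at all 3 stages these were the 3 with an overlap under 50 bp.

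Most of the regions did not lie beside a 13 h peak. The nearest 13 h peak was within 500 bp of 79 regions (9.25%), within 1 kb of 131 (15.3%), within 5 kb of 316 (37.0%) and within 10 kb of 454 (53.2%). Regions with a peak at 8 h only had a 13 h peak within 1 kb in 12.3% and within 10 kb in 40.6%, and those with a peak after 2 rounds only in 9.63% and 37.9%. A region with peaks at all 3 stages lay within 10 kb of 207 of the 854 (24.2%), against 16.5% of regions with peaks at 13 h and 2 rounds and 30.1% of those with peaks at 8 h and 13 h.

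**Figure D5:**
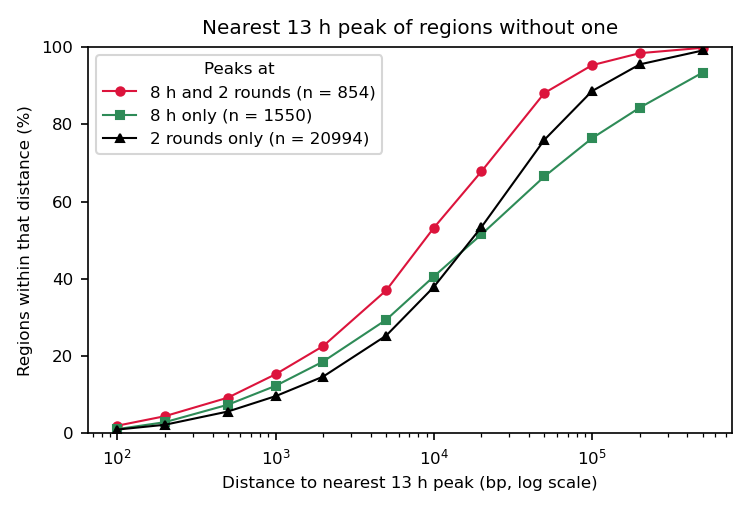
Share of regions (percent, vertical axis) with a 13 h peak within a given distance (bp, horizontal log axis), for regions with peaks at 8 h and 2 rounds, at 8 h only and after 2 rounds only. The regions with peaks at 8 h and 2 rounds lie highest among these classes, with 15.3% within 1 kb and 53.2% within 10 kb.

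A few regions were strong in every library, IgG included. The highest, chr2:98466999-98468251, held 1221, 1165 and 1057 RPM of Stat5a, 1021, 1285 and 800 RPM of Stat5b and 1076, 1357 and 1455 RPM of IgG at 8 h, 13 h and 2 rounds. Its Stat5a ratio to IgG was 1.13 (1.09 to 1.18) at 8 h, 0.859 (0.835 to 0.883) at 13 h and 0.726 (0.703 to 0.750) after 2 rounds. At chr9:3025228-3025660 Stat5a was 102, 90.0 and 85.0 RPM and IgG 79.6, 96.6 and 105 RPM, with a Stat5a ratio to IgG of 1.28 (1.10 to 1.47) at 8 h. These were the first and second of the 854 by RPM above IgG at 8 h, and no ChIP level of either exceeded that of the control by more than the 1.28 of Stat5a at chr9:3025228-3025660. After 2 rounds both antibodies lay below the control in both regions, with Stat5b at 0.550 (0.532 to 0.568) of IgG in the first. The other 4 of at least 10 RPM of IgG were chr9:3031803-3032135, chr9:3037945-3038532, chr8:3754164-3754662 and chr15:74913497-74914405. In the region with heaped reads, chr4:98685954-98686429, Stat5a was 3.51, 6.98 and 8.13 RPM and IgG 1.44, 4.78 and 5.70 RPM.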

How the data were processed

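Chromatin immunoprecipitates of Stat5a and Stat5b and IgG controls were sequenced in CD4+ T cells at 3 stages, 9 libraries and 22 lanes per the labels. The authors deposited, for each library, the coordinates and strand of each mapped read and, for the 6 ChIP libraries, the coordinates of each peak, with no height or score; the build, mm8, is given by the names of the deposited files. Aligner and peak caller: not given in the sources used here. Read length was 25 bp or 24 bp, and the starts of 24 bp reads were moved by 1 bp. Reads were counted by their 5′ end and divided by the library total. Intervals are at 95%, and a count of 0 was set at a floor of 3 reads where a bound is given. A region was heaped when, in a library with 20 reads or more there, over 50% shared 1 start and strand.

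The regions, lists and rules were chosen with earlier results of these data known. Named regions were the top 10 by RPM over IgG (mean of both antibodies) at 8 h and after 2 rounds, per antibody up to 5 of those called lower from 8 h to 13 h or higher from 13 h to 2 rounds, by size of ratio and with 20 reads or more in the higher library, the 3 nearest to the limit on each side, and up to 5 with peaks in all 4 lists; the text gives examples of these, and regions chosen otherwise are said to be. Alternatives were stricter overlaps, the upper 50% of each list by reads, distinct starts, other scalings, starts moved by 75 bp, 25 bp reads alone, pooled IgG, and leaving out heaped regions or regions near a 13 h peak. Scaling by the median ratio and leaving out regions with high IgG were added after the data were seen. The call rule was tested on simulated data. Genes and motifs were not analysed here. The software was matplotlib 3.10.9, scipy 1.17.1, pandas 2.3.3 and numpy 2.4.6 under Python 3.11.15.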

Additional observations from a re-analysis of the deposited data

Results flagged for a closer look

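Over all 854 regions with peaks at 8 h and 2 rounds, the antibodies changed in opposite directions from 8 h to 13 h. The median log2 ratio was -1.09 for Stat5a (840 regions) and 0.60 for Stat5b (841 regions). No test of this difference was made, as each rests on 1 library per stage. The regions were chosen by peaks of these libraries, 610 of them through a Stat5a peak only at 8 h, where the values were -1.32 for Stat5a and 0.83 for Stat5b. In the 205 chosen through a Stat5b peak only, they were -0.09 for Stat5a and -0.22 for Stat5b, with no opposite change. Over all 854 regions the median log2 ratio of IgG over the same step was 0.61. On distinct starts the values were -1.13 for Stat5a, 0.43 for Stat5b and 0.73 for IgG. Scaled by reads outside regions they were -1.09 for Stat5a and 0.63 for Stat5b. Relative to the median of all merged regions, themselves chosen by peaks, Stat5b turned to -0.32 and Stat5a stayed below 0 at -0.88.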

How the results depend on the processing

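No paired analysis was possible because each group has 1 library, and no replicate could be left out. The number of regions, 854, was 275 when the 8 h and 2 rounds peaks had to overlap by 50% of both, 244 with the upper 50% of each list by reads, and 166 with the upper 50% of the 8 h and 2 rounds lists and the 13 h lists whole. The 131 regions with a 13 h peak within 1 kb became 316 within 5 kb. Counting each start and strand once changed the Stat5a falls from 8 h to 13 h from 83 to 21, the Stat5b falls from 1 to 0, the rises from 13 h to 2 rounds from 44 to 12 for Stat5a and from 216 to 120 for Stat5b, and the regions above IgG at 13 h from 197 to 63 for Stat5a and from 351 to 155 for Stat5b. Scaling by the median ratio over all merged regions, which shifts the 4 step ratios by log2 -0.20, 0.93, 0.32 and 1.37, gave 55 Stat5a falls, 24 Stat5b falls, 19 Stat5a rises and 12 Stat5b rises. With 25 bp reads alone, 47 Stat5a falls were called. With starts moved by 75 bp, 0 Stat5b falls were called. With IgG pooled over the stages, 358 regions were above IgG for Stat5a at 13 h and 526 for Stat5b. The causes were not tested. The other alternatives run, among them scaling by reads outside regions and leaving out heaped or high IgG regions, kept these counts within 1.5 times. Depth limits the calls per region, as the median region held 10 Stat5a reads at 8 h, and a library with no read allows up to 0.958 RPM (Stat5a at 8 h) or 0.361 RPM (Stat5a at 13 h).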
